A study of Mus musculus with 54 samples.

Results

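The thick ascending limb is the kidney tubule segment that reabsorbs sodium chloride without water through the cotransporter NKCC2, the product of *Slc12a1*, and that secretes uromodulin, the product of *Umod*. Potassium returned to the lumen by the channel ROMK (*Kcnj1*) and sodium pumped out by the sodium pump sustain this transport. Calcium and magnesium pass between the cells, where claudin-16 and claudin-19 form cation paths that are characteristic of the cortical limb, while claudin-10 (*Cldn10*) forms a sodium path that prevails in the medullary limb.

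Thick limb cells and nuclei were chosen by a rule on measured values: at least 2 *Slc12a1* UMIs (unique molecular identifiers, 1 per captured transcript), 0 UMIs of *Slc12a3* and *Aqp2*, which mark the distal convoluted tubule and the principal cell, and at most 1 UMI of *Nos1*, which marks the macula densa. The rule kept 16223 of 175959 barcodes in 39 10x libraries, namely 2896 of 77656 in 27 cell libraries and 13327 of 98303 in 12 nuclei libraries. Levels of *Slc12a1* itself are therefore only described, and *Nos1* was listed in 18 of the 39 libraries, so its limit could act in those alone.

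The kidneys came from healthy adult mice, with 3 libraries, each from a kidney of another mouse, in every one of 13 groups. Male C57BL/6J mice of 19 weeks (AFAPIL.1DEL littermates) gave kidneys that were dissociated either warm, at 37 °C with a commercial enzyme kit, or cold, on ice with a bacterial protease. Each suspension was run fresh, cryopreserved for 6 weeks or methanol-fixed. Male Balb/c mice of 18 weeks gave cold-dissociated fresh cells and nuclei. Female Balb/c mice of 15 weeks that had bred gave cold-dissociated fresh cells, cryopreserved cells and nuclei isolated in 3 ways. All nuclei, of both sexes, were isolated from whole kidneys that had been flash-frozen. The nuclei were washed 3 times at 500g and sorted by DAPI (3x500g), washed once at 2000g and sorted (1x2000g), or passed through a sucrose cushion without a sort. Male nuclei were prepared by the 3x500g way only. The strains and sexes also differ in age and in 10x chemistry (version 2 in the males, version 3 in the females), so no fit crosses them. Only results of separate fits are set side by side across them. A cell library holds reads of exons and a nuclei library reads of exons and introns.

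Thick limb barcodes numbered 41 to 129 per library in cold fresh C57BL/6J kidneys, 67 to 165 in warm fresh, 6 to 23 in cold cryopreserved, 84 to 120 in warm cryopreserved, 26 to 74 in cold methanol-fixed and 19 to 87 in warm methanol-fixed. They numbered 96 to 158 in male Balb/c cells, 253 to 536 in female fresh cells, 38 to 83 in female cryopreserved cells, and 903 to 1638 in each female nuclei library. Their median depth was 1113 to 3284 UMIs in C57BL/6J libraries, 288 to 775.5 in male Balb/c cells, 620 to 645 in male nuclei, 3670 to 6379 in female cells and 2537 to 3398 in female nuclei. The cold cryopreserved library with 6 members was left out of every fit across genes. Any pair of libraries shared at most 2.05% of the barcode letters of the smaller one, and 30 member barcodes in all were shared.

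The members were checked against markers that the rule did not use. *Umod* was detected in most members of every fresh cell library, and *Egf*, the precursor of epidermal growth factor, which the thick limb makes in large amounts, was a leading transcript in cells and nuclei alike. In the 3 cold fresh C57BL/6J libraries *Umod* stood at 20456, 17592 and 15346 CPM (the UMIs of a gene as a proportion of all non-mitochondrial UMIs of a library's members, on the usual CPM scale) and *Egf* at 12408, 15976 and 12514 CPM. In the 3 female 3x500g nuclei libraries *Umod* stood at 1716, 1564 and 1325 CPM and *Egf* at 6959, 8168 and 9606 CPM. The label therefore held for the fresh cell libraries as a whole, but not for every nucleus. Detection of *Umod* alone is a weak sign. In fresh cell barcodes that met the other limits with exactly 1 *Slc12a1* UMI it was detected in 24.7% to 52.4%. Among preserved cold-dissociated C57BL/6J cells it rested on less: *Umod* was detected in 3 of 6, 17 of 23 and 12 of 14 members of the cold cryopreserved libraries, and 13.7% to 21.6% of the members of the cold fixed libraries held 3 or more proximal tubule UMIs. *Umod* was detected in 78 of 84, 82 of 90 and 117 of 120 members after warm cryopreservation. It was detected in 39 of 39, 80 of 87 and 19 of 19 after warm fixation, and in 55 of 55, 78 of 83 and 34 of 38 female cryopreserved members.

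The female nuclei that met the rule fell into 2 ranges of *Slc12a1*. In the first 3x500g library, 349 of 1638 members held 2 to 5 *Slc12a1* UMIs, 2 held 6 to 9, and the rest held 10 or more. The other 3x500g libraries had 304 of 1294 and 201 of 1096 members in the low range and 2 and 3 members at 6 to 9. In the low range 67.9%, 67.1% and 67.7% of these nuclei also held at least 3 UMIs of *Slc34a1* and *Lrp2*, the phosphate cotransporter and the megalin receptor of the proximal tubule, and *Umod* was detected in 38.7%, 36.2% and 26.9%. Above it, at 50 or more *Slc12a1* UMIs, the proximal share was 5.60%, 5.02% and 5.19% and *Umod* was detected in 94.6%, 96.1% and 93.6%. *Cldn10* did not separate the 2 ranges. It was detected in 55.9%, 53.0% and 61.7% of the low range and in 53.6%, 62.4% and 62.5% at 50 or more. Nuclei with 2 to 5 *Slc12a1* UMIs thus carried proximal tubule transcripts more often than not, and the name thick limb is not given to them by their markers. Just outside the rule, the nuclei of the first library with exactly 1 *Slc12a1* UMI had *Umod* in 39.7% and 3 or more proximal UMIs in 70.4%, and those with exactly 2 had *Umod* in 37.3% and proximal UMIs in 65.8%. The fits across genes on nuclei were therefore also computed with at least 6 *Slc12a1* UMIs, and for a named gene that value is given where the call changed. Male nuclei showed no such gap, with 297 of 971, 368 of 1030 and 329 of 953 members at 6 to 9 UMIs. Of their nuclei with 2 to 5 UMIs, 20.7%, 29.6% and 21.0% held 3 or more proximal UMIs. Among all male nuclei members *Umod* was detected in 854, 706 and 680.

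**Figure D1:**
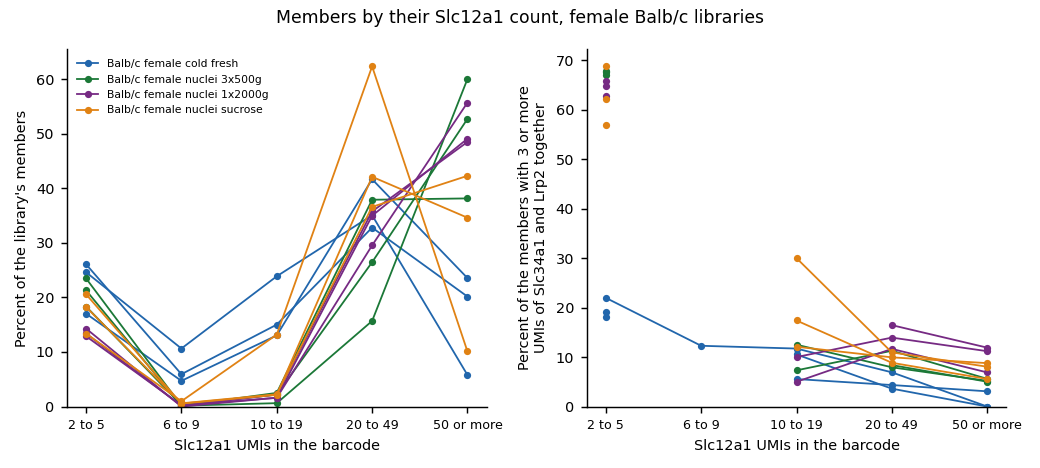
Left, the share of each library's thick limb barcodes (y axis, percent) by their number of *Slc12a1* UMIs (x axis, binned); right, the share of the barcodes in each bin that also held at least 3 UMIs of *Slc34a1* and *Lrp2* (y axis, percent), for bins of 20 or more barcodes. Each line is 1 female Balb/c library. The bin of 6 to 9 UMIs is nearly empty in all female nuclei libraries, and female nuclei with 2 to 5 UMIs hold proximal tubule transcripts far more often than those with 20 or more.

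*Slc12a1* UMIs were also present in barcodes of other cells. Among endothelial barcodes, which should lack this gene, 15.8% to 31.4% held a *Slc12a1* UMI in the female nuclei libraries.

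The share of thick limb barcodes was compared after thinning every barcode to 500 UMIs, since the rule depends on depth. The share rose from 1.57% ± 0.31 in cold fresh to 2.33% ± 0.56 in warm fresh C57BL/6J libraries (SD, n = 3 libraries each), with no overlap between the groups. Thinned to 1000 UMIs, which leaves out more barcodes, the shares were 2.62% ± 0.53 and 3.97% ± 1.28 and overlapped. With 3 libraries against 3 an exact two-sided permutation test over libraries cannot give a p below 0.1, which was its value at 500 UMIs, so no difference in share could pass 0.05. Cryopreservation of C57BL/6J suspensions moved the share in opposite directions, to 0.621% ± 0.35 after cold and to 4.81% ± 1.18 after warm dissociation. In cold-dissociated female Balb/c libraries it was 2.52% ± 0.89 after cryopreservation against 3.81% ± 0.33 in fresh cells, with overlap, and 3.53% ± 1.36 against 6.14% ± 0.58 at 1000 UMIs, without overlap. Counted only among barcodes that met this rule or the mirrored rules for *Slc12a3* and *Aqp2*, the share after warm dissociation instead fell on cryopreservation, from 58.7% ± 6.93 to 42.9% ± 14.5. The cryopreserved libraries stood at 26.1%, 50.6% and 51.85%, and the lowest fresh library at 51.94%, so the fall rested in large part on 1 library. Methanol-fixed libraries held 1.04% ± 0.11 after cold and 2.12% ± 0.23 after warm dissociation, without overlap, and 2.59% ± 0.15 and 3.46% ± 0.41 at 1000 UMIs, again without overlap. The lower share of cold fixed than of cold fresh libraries was not seen at 1000 UMIs, at 2.59% against 2.62%. In nuclei the share was 11.3% ± 0.65 in males, against 3.75% ± 2.30 in male cells, and 17.9% ± 1.45 (3x500g), 13.5% ± 2.55 (1x2000g) and 13.6% ± 0.54 (sucrose) in females, against 3.81% ± 0.33 in female fresh cells. In 1 of the male cell libraries the thinning kept few barcodes, and its share of 1.09% stood apart from 5.14% and 5.02% in the other two. At 1000 UMIs the male shares overlapped, at 3.97% ± 0.94 in nuclei and 3.37% ± 1.28 in cells (exact two-sided permutation p = 0.6, n = 3), with 22 to 870 barcodes left per cell library. Male nuclei members had a median of 620 to 645 UMIs, below the 946 to 1025 of all barcodes in their libraries. The cut at 1000 UMIs thus left out 838 of 971, 852 of 1030 and 808 of 953 of them. The overlap therefore cannot show that the shares were alike. The female shares at 1000 UMIs were 17.8% ± 1.24 in 3x500g nuclei and 6.14% ± 0.58 in fresh cells, without overlap. Without thinning they were 17.2% ± 1.61 and 6.16% ± 0.53, also without overlap. With at least 6 *Slc12a1* UMIs and no thinning, the female nuclei shares were 13.6% ± 1.15 (3x500g), 10.8% ± 2.32 (1x2000g, overlapping 3x500g) and 10.3% ± 0.89 (sucrose), and nuclei were not compared with cells in this way. Counting only barcodes that also held a *Umod* UMI, the 1x2000g share was the higher of the female nuclei protocols, at 10.9% against 9.90% in 3x500g, with overlap, and the sucrose share was 9.79%. The background of *Umod* differed between these protocols. Among nuclei with exactly 1 *Slc12a1* UMI it was detected in 72.8%, 62.4% and 61.0% in the 1x2000g libraries. It was detected in 39.7%, 43.0% and 28.4% in the 3x500g libraries and in 52.1%, 57.4% and 49.9% in the sucrose libraries. The part of this background in the shares was not tested.

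**Figure D2:**
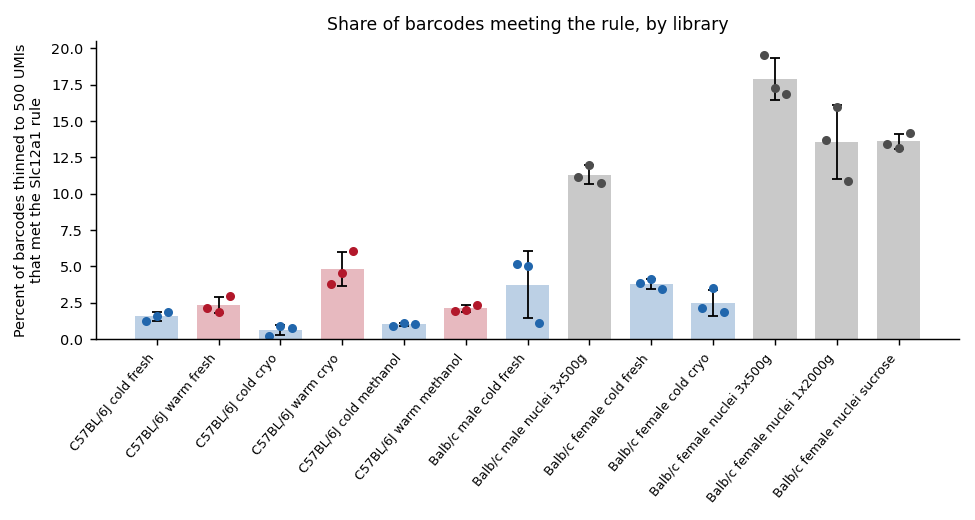
Share of barcodes meeting the thick limb rule after thinning to 500 UMIs (y axis, percent) in the 13 groups. Points are libraries, bars are means of 3 libraries and error bars are SD. Blue marks cold and red marks warm dissociation, grey marks nuclei. All nuclei libraries lie above all cell libraries.

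Warm against cold dissociation of fresh kidneys asked how these cells differ between the 2 protocols. The protocols differ in enzyme, mincing and centrifugation as well as in temperature, and these cannot be told apart. Of 2423 genes tested, 74 (3.05%) were called at an adjusted p below 0.05, 44 higher (1.82%) and 30 lower (1.24%). Immediate early genes, many of them transcription factors that respond to stimuli within minutes, included *Fos*, *Fosb* and *Atf3*, which were listed at 0 UMIs in cold members and rose in warm ones. Of 17 dissociation stress genes that the study selected on these same samples, which is not independent evidence of their direction, 16 were tested, 12 rose and 1 fell. Of 28 further immediate early genes 9 were tested and 7 rose, while 19 did not pass the filter on low counts. Since a gene can pass it through the warm libraries alone, as *Fos*, *Fosb* and *Atf3* did, the counts of both lists are a description only.

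*Fos*, the AP-1 subunit that defines the response, was listed at 0 UMIs in all 3 cold libraries and stood at 1856, 819 and 1210 CPM in the warm ones. Against a floor of 3 UMIs over the cold group it was at least 143-fold higher, and *Fosb* and *Atf3*, with 0 UMIs in cold as well, were at least 26.3-fold and 19.1-fold higher. *Jun*, which was measurable in both, stood at 33.7, 55.9 and 35.1 CPM in cold and at 972, 611 and 821 CPM in warm. The groups did not overlap, and the log2 fold change was 4.14 ± 0.27 (SE, adjusted p = 1.71e-07). *Junb* had 3 UMIs in cold and 532 in warm, a ratio of 87.1 with a counting interval of 29.6 to 423. The phosphatase gene *Dusp1*, which ends MAP kinase signalling, rose from 11.2, 14 and 21.1 CPM to 373, 271 and 392 CPM, and *Btg2*, an antiproliferative early gene, rose from 22.5, 6.99 and 21.1 CPM to 453, 277 and 490 CPM.

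Among 20 chaperone genes, 14 were tested and 3 rose, all of them encoding heat-inducible or small heat shock proteins. *Hspa1a*, which encodes the inducible HSP70, went from 0, 28 and 14.1 CPM to 314, 402 and 995 CPM (log2 fold change 5.09 ± 0.60, adjusted p = 8.73e-05). Its reads are uncertain against the near-identical *Hspa1b*. *Hspb1* rose by 3.33 ± 0.47 on the log2 scale. *Cryab* rose by 1.54 ± 0.33 and lost its call without cold library 2 or without warm library 3, at 1.55 and 1.43. The one stress gene that fell was *Ier3*, an early gene that restrains cell death, from 157, 259 and 155 CPM to 80.4, 71.3 and 58.1 CPM (log2 fold change -1.53 ± 0.30, adjusted p = 0.00734), a call lost at -1.22 without cold library 2.

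The promoters of the genes that rose differ in the response elements they hold. The proximal promoters (250 bases before to 50 after the start, RefSeq, GRCm38.p6) of 4 of them are shown because they carry elements known to answer calcium and cAMP signals or heat shock factor. Capitals mark TGACG, the core of the cAMP response element, in *Fos*, the full element TGACGTCA in *Dusp1* and *Btg2*, and GAANNTTC, a pair of inverted heat shock units, in *Hspa1a*. Both strands were searched.
Fos, chr12:85473640-85473939, plus strand: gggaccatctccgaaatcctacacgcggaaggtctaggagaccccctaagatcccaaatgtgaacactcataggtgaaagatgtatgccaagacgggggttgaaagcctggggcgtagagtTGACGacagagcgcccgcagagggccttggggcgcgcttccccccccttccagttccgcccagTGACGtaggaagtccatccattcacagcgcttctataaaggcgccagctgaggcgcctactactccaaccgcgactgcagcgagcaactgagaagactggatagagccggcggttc
Dusp1, chr17:26508423-26508722, minus strand: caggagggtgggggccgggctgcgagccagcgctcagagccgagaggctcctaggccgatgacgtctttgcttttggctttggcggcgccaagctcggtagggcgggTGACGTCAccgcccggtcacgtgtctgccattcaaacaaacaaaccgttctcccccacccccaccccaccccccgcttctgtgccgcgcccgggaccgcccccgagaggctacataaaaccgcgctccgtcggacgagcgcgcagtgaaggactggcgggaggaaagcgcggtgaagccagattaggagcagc
Btg2, chr1:134079106-134079405, minus strand: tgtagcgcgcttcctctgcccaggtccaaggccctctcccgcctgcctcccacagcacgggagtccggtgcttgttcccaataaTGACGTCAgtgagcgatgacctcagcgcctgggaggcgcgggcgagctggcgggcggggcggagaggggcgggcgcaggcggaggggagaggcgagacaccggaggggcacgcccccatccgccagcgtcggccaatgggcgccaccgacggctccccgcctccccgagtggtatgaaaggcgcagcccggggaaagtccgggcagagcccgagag
Hspa1a, chr17:34972107-34972406, minus strand: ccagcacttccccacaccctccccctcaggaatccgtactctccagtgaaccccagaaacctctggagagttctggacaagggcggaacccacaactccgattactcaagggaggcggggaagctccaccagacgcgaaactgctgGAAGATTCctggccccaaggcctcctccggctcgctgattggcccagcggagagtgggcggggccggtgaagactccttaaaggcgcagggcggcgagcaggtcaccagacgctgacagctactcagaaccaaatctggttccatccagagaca
Of 19 stress or immediate early genes that rose, 17 had a promoter in the table. TGACG, which the full element contains, was in 10 of the 17, against 20.8% of 32851 mouse promoters of this length. TGACGTCA was in 3 of the 17 (*Btg2*, *Dusp1* and *Ppp1r15a*), against 1.79%, and GAANNTTC in 3 (*Hspa1a*, *Hspb1* and *Jun*), against 7.86%. The AP-1 letters TGANTCA were in none of the 17, against 7.81% of all promoters. These matches describe letters in a window and no binding was measured.

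Of 12 salt transport genes tested 4 rose, 1 fell and 7 did not pass, with a median log2 fold change of -0.10 against -0.02 over all genes tested. Among other genes of the thick limb, *Cldn10* rose from 933, 657 and 492 CPM in cold to 2287, 1321 and 1653 CPM in warm (log2 fold change 1.31 ± 0.21, adjusted p = 0.00155). As given above, *Cldn10* was also detected in many female nuclei of the low *Slc12a1* range. *Ptger3*, the receptor for prostaglandin E2, rose from 157, 224 and 176 CPM to 460, 380 and 363 CPM (1.03 ± 0.20, adjusted p = 0.00853). *Tfcp2l1*, a transcription factor of the distal tubule, fell from 337, 378 and 260 CPM to 80.4, 140 and 145 CPM (-1.37 ± 0.24, adjusted p = 0.00335). For these 3 genes the groups did not overlap, and the calls stood in every alternative run, including without each library in turn.

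*Pth1r*, the receptor for parathyroid hormone, fell from 652, 881 and 618 CPM to 190, 243 and 451 CPM (-1.29 ± 0.25, adjusted p = 0.00724), and *Wnk1*, a kinase that controls chloride cotransporters, from 674, 1433 and 857 CPM to 226, 488 and 447 CPM (-1.35 ± 0.27, adjusted p = 0.00853). Without cold library 2 both calls were lost, at -1.11 and -0.99, and 37 genes were called in all, against 125 without cold library 1. *Umod* (-0.06 ± 0.14), *Egf* (-0.45 ± 0.17), *Kcnj1* (-0.17 ± 0.17), *Cldn16* (0.28 ± 0.30) and *Cldn19* (0.59 ± 0.20) did not pass the test. Of 12 salt transport genes tested, 4 rose and 1 fell, and of 13 genes of secreted or signalling proteins of the thick limb, 2 rose.

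Signals of other cells moved in part. None of 18 proximal tubule genes tested passed. Hemoglobin genes summed to 3020 to 25168 CPM in cold and 733 to 4196 CPM in warm members, and 2 of 4 were called lower, while endothelial genes summed to 45 to 84 and 190 to 559 CPM. Distal convoluted tubule genes were lower in 2 of 3 cases (*Sgms2* and *Wnk4*), as were *Klk1*, 1 of 2 connecting tubule and principal cell genes tested, and *Cd74* (-2.19 ± 0.41), the 1 immune gene tested. *Emcn*, the 1 endothelial gene tested, and *Cryab*, the 1 thin limb gene tested, were higher. Their part in the result was not tested.

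**Figure D3:**
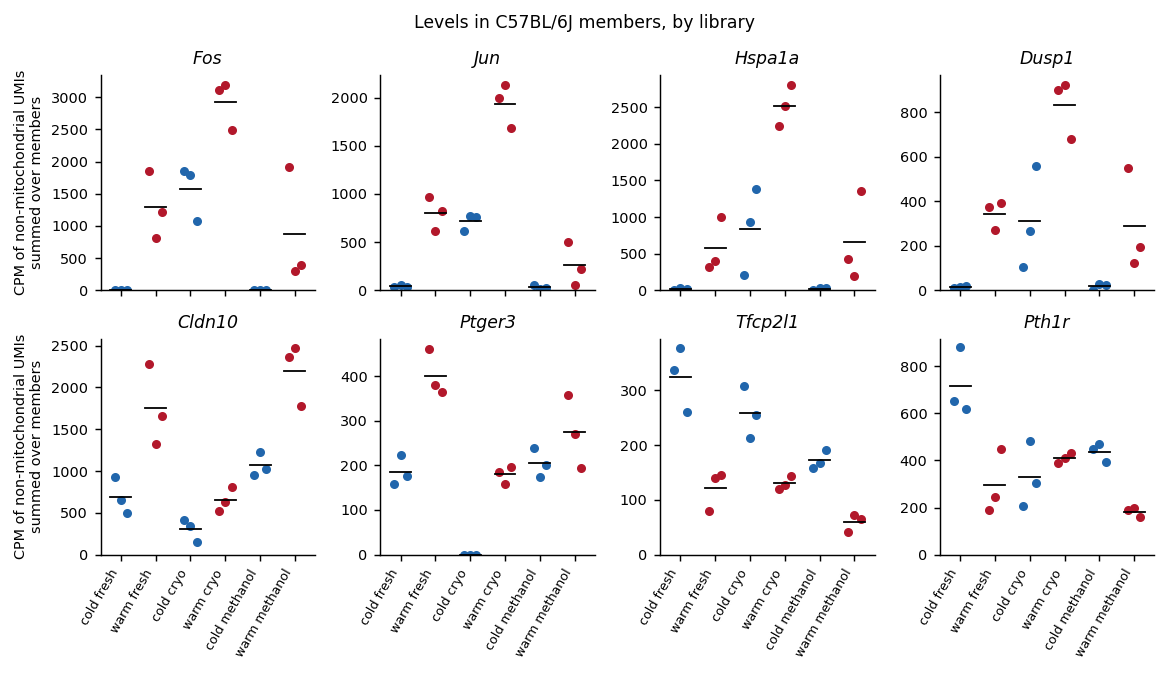
Levels of 8 genes in thick limb barcodes of the 6 C57BL/6J groups (y axes, CPM of non-mitochondrial UMIs, linear). Points are libraries, lines are means, blue is cold and red is warm dissociation. *Fos* is at or near 0 in cold fresh and cold methanol-fixed libraries only, *Cldn10* is higher and *Pth1r* lower in warm than in cold among both fresh and methanol-fixed libraries. The first cold cryopreserved point rests on 6 barcodes.

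Methanol-fixed aliquots of the same suspensions repeated the comparison of warm with cold. The fixed cells held fewer UMIs, and 32 of 1097 genes (2.92%) were called, 20 higher (1.82%) and 12 lower (1.09%). *Fos* had 1 UMI in the cold fixed members and 132 in the warm ones, a ratio of 218 with a counting interval of 38.5 to 8687. *Junb* (4.49 ± 0.65), *Hspa1a* (4.39 ± 0.69) and *Jund* (1.94 ± 0.39) also rose. Of the 17 stress genes 11 did not pass the filter on low counts, and *Fos* passed it through the warm libraries, so the 4 called of 6 tested are a description only. *Cldn10* stood at 954, 1231 and 1025 CPM in cold and at 2360, 2467 and 1776 CPM in warm fixed libraries (1.02 ± 0.16, adjusted p = 0.000939). *Pth1r* fell from 451, 471 and 392 CPM to 190, 197 and 161 CPM (-1.24 ± 0.29, adjusted p = 0.0143), a call lost at -1.21 without cold fixed library 2. *Ptger3* did not pass (0.48 ± 0.32). All 4 hemoglobin genes were lower in warm fixed members, at 4229 to 12308 CPM in sum against 13917 to 27876 CPM, as were 2 of 16 proximal tubule genes (*Gpx3* and *Spink1*). The test of whether the warm effect differed between fixed and fresh members called 0 of 2343 genes (0%) in edgeR and 0 in DESeq2, with 123 genes at an unadjusted p below 0.05. With the suspension as block it called 2 genes. Without cold fixed library 2 or 3, 20 and 14 genes were called for warm against cold in fixed members. Fixed and fresh libraries come from shared suspensions, so the fixed libraries are no independent repeat of the dissociation.

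The genes that moved with warm dissociation were then set against the division of the thick limb into a claudin-16 and a claudin-10 part, which the nuclei show within each library. *Cldn16* and *Cldn10* were detected in different nuclei more often than in the same ones. Among female nuclei members thinned to 1000 UMIs, *Cldn16* was detected in 2.09% ± 0.78 of those with a *Cldn10* UMI and in 4.78% ± 0.99 of those without (SD, n = 9 libraries). The share was lower with *Cldn10* in 9 of 9 libraries, and the exact two-sided sign-flip permutation test gave p = 0.0039, the smallest it can give. This p, like those of the fit that follows, treats the 9 libraries as separate samples, and the sources used here do not state whether the libraries of the 3 protocols came from the same mice. Restricted to 6 or more *Slc12a1* UMIs the shares were 2.44% and 5.90%.

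Nuclei with *Cldn16* and no *Cldn10* UMI (45 to 90 per female library) were compared with nuclei with *Cldn10* and no *Cldn16* UMI (577 to 816), both summed per library with the library as block. The sides were chosen by these 2 genes, which were left out of the test. Of 10077 genes tested, 1964 (19.5%) were called, 879 higher (8.72%) and 1085 lower (10.8%) on the *Cldn16* side. With at least 6 *Slc12a1* UMIs 1438 of 9374 were called, and the values that follow are from that fit. Proximal tubule genes were lower on the *Cldn16* side in 18 of 21 cases with all members and in 7 of 21 cases with at least 6 *Slc12a1* UMIs. In the latter fit intercalated cell genes were higher in 2 of 4 cases (*Atp6v0d2* and *Slc4a9*), connecting tubule and principal cell genes in 2 of 6 (*Klk1* and *Scnn1a*) and distal convoluted tubule genes in 1 of 3 (*Tmem52b*), and *Hbb-bs* was lower. The part of these markers in the result was not tested.

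On the *Cldn16* side, 5 of 8 tested genes of tight junction pores and divalent cation handling were higher (*Casr*, *Cldn19*, *Cnnm2*, *Pth1r* and *Rragd*) and 0 were lower. *Casr*, the calcium-sensing receptor, was higher by 1.86 ± 0.07 on the log2 scale, *Pth1r* by 1.80 ± 0.10 and *Cldn19* by 0.74 ± 0.11. *Kcnj10*, a basolateral potassium channel gene, was higher by 2.06 ± 0.13. *Wnk1* was higher by 2.47 ± 0.07 and *Egf* by 0.98 ± 0.05. *Tmem52b*, which is on the list of distal convoluted tubule genes (4.23 ± 0.09), *Nrxn3* (4.26 ± 0.11), *Enox1* (3.16 ± 0.08) and *Plcxd3* (2.97 ± 0.11) were among the genes higher on this side that had the same sign in the male libraries. On the *Cldn10* side, *Ptger3* was higher (-1.56 ± 0.09), as were the creatine kinase gene *Ckb* (-1.04 ± 0.11) and the homeobox genes *Irx1* (-2.39 ± 0.22) and *Irx2* (-0.95 ± 0.21). *Kcnj1*, called with all members at 0.49 ± 0.08, was at 0.16 ± 0.07 in this fit and did not pass.

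The 3 male nuclei libraries, which did not enter that fit, had 19 to 35 and 211 to 300 nuclei on the 2 sides and called 24 of 2087 genes (1.15%), 17 higher (0.815%) and 7 lower (0.335%). There *Casr* was higher on the *Cldn16* side by 2.11 ± 0.28 (adjusted p = 0.000318), *Wnk1* by 2.13 ± 0.24, *Tmem52b* by 2.98 ± 0.34, *Nrxn3* by 3.44 ± 0.34 and *Egf* by 0.86 ± 0.14. *Pth1r* (1.45 ± 0.38, adjusted p = 0.0785) and *Ptger3* (-1.24 ± 0.34, adjusted p = 0.0865) did not pass. *Tmem52b* and *Nrxn3* were picked among genes with the same sign in males, so their male sign is no separate evidence.

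Of the 59 genes called for warm dissociation that were also tested for the claudin sides, 32 (54.2%) were called there too, which is 8.14% of the 393 called for the sides. Of all 2210 genes tested in both comparisons 17.8% were called for the sides. The sign was opposite in 29 of the 32, so that genes lower after warm dissociation were higher on the *Cldn16* side and the reverse. The lower ones included *Pth1r*, *Wnk1*, *Tfcp2l1* (1.10 ± 0.08 on the *Cldn16* side) and *Ier3* (2.37 there). The higher ones included *Ptger3* and *Ckb*, whose warm call (0.69 ± 0.18) was lost without any of 5 of the 6 libraries, at 0.53 to 0.78. *Klk1*, on the list of connecting tubule and principal cell genes, is also among the 29. *Fxyd2*, *Tmem207* and *Tsc22d1* were higher in both. With all members 27 of 32 had opposite signs. The methanol-fixed comparison of warm with cold did not repeat this direction: of its 24 called genes tested for the sides, 13 (54.2%) were called there too, 9.49% of the 137 called for the sides, against 14.1% of all 970 genes tested in both, 6 with opposite and 7 with the same sign. With all members 4 had opposite and 11 the same sign. The opposite direction was not limited to warm dissociation. Of 385 genes called for cold methanol fixation and tested for the sides, 84 (21.8%) were called there too, 30.2% of the 278 called for the sides, against 17.1% of all genes tested in both, and 57 of the 84 had the opposite sign. Of 411 genes called for cryopreservation after warm dissociation, 84 (20.4%) were called for the sides, 24% of 350, against 17.5% of all, and 59 of the 84 had the same sign. Of 132 called for methanol fixation after warm dissociation, 26 (19.7%) were called for the sides, 9.77% of 266, against 16.6% of all, 14 with the same and 12 with the opposite sign. These comparisons share fresh libraries with warm against cold. Proximal tubule genes, some of them lower on the *Cldn16* side, mostly rose on cold fixation and fell on cryopreservation after warm dissociation. Their part in these signs was not tested. The fresh warm comparison and the sides share no library or strain, but levels were not matched between the gene sets, and whether warm suspensions held another mix of thick limb cells or changed the cells they held cannot be told apart from these counts.

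**Figure D4:**
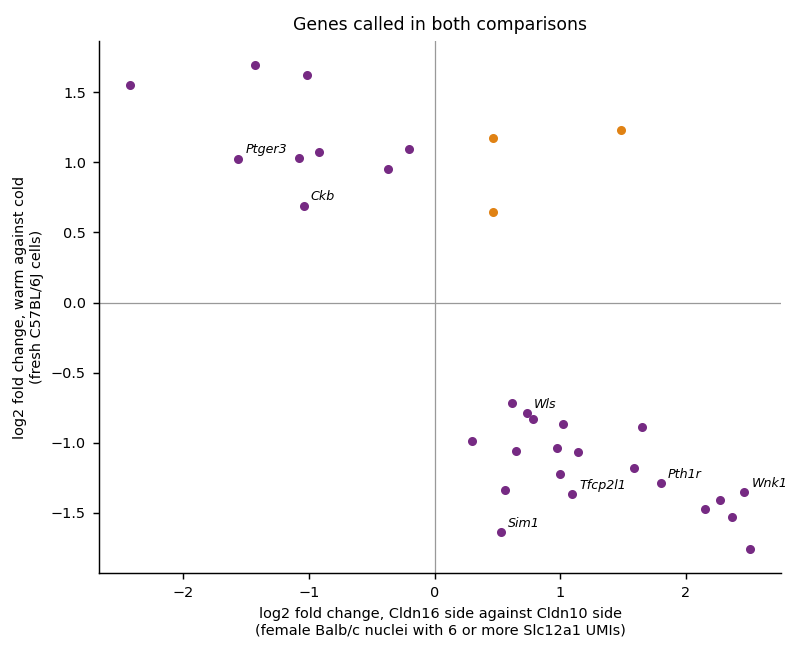
The 32 genes called both for warm against cold dissociation (y axis, log2 fold change, fresh C57BL/6J cells) and for the *Cldn16* against the *Cldn10* side (x axis, log2 fold change, female Balb/c nuclei with 6 or more *Slc12a1* UMIs). Purple marks the 29 genes with opposite signs, orange the 3 with the same sign, and a selection is named.

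Cryopreservation was compared with fresh cells of the same dissociation, which share their fresh libraries with the comparison above. After cold dissociation, 111 of 1672 genes (6.64%) were called, 54 higher (3.23%) and 57 lower (3.41%), on 3 fresh and 2 cryopreserved libraries. With the suspension as block the count was 204. Of 15 stress genes tested, 12 rose on cryopreservation, a count that the filter on low counts helps to fix, since *Fos*, *Fosb* and *Atf3* were at 0 UMIs in the fresh libraries. *Fos* stood at 1791 and 1071 CPM in the 2 cryopreserved libraries fitted, at least 193-fold above the fresh floor, and *Jun* at 775 and 765 CPM against 33.7, 55.9 and 35.1 CPM (4.07 ± 0.39, adjusted p = 8.43e-05). *Hspa1a* stood at 935 and 1377 CPM (5.94 ± 0.48). Of 12 genes of secreted or signalling proteins tested 5 fell, among them *Egf* (-1.21 ± 0.26, adjusted p = 0.0165), *Kng2* (-1.60 ± 0.25) and *Wfdc15b* (-1.27 ± 0.23), and *Umod* fell from 20456, 17592 and 15346 CPM to 6628 and 10867 CPM (-1.10 ± 0.27, adjusted p = 0.0323). The call of *Umod* was lost at -1.05 with the block, that of *Cldn10* (-1.35 ± 0.40, adjusted p = 0.0606) was gained at -1.19, and that of *Egf* was lost at -1.04 without cold fresh library 2. *Ptger3* was listed at 0 UMIs in the cryopreserved libraries, at least 3.61-fold lower, a call lost without cryopreserved library 2. Without cold fresh library 2 the number of genes called was 35 and without cryopreserved library 2 it was 33. Proximal tubule genes fell in 9 of 15 cases and summed to 720 to 2296 CPM against 7654 to 10820 CPM in fresh members. Hemoglobin genes fell in 3 of 4 cases, with 3020 to 25168 CPM in sum in fresh members and 102 and 107 CPM in the 2 cryopreserved libraries fitted. Both counts are a description only, since a gene can pass the filter through the fresh libraries alone. The part of both in the result was not tested.

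After warm dissociation cryopreservation called 496 of 2220 genes (22.3%), 260 higher (11.7%) and 236 lower (10.6%). Stress genes rose further, in 15 of 17 cases, with *Fos* at 3112, 3192 and 2490 CPM (1.32 ± 0.21, adjusted p = 0.000395), *Jun* at 1995, 2133 and 1684 CPM (1.40 ± 0.16) and *Hspa1a* at 2245, 2512 and 2804 CPM (2.21 ± 0.28). *Ier3*, which warm dissociation lowered, rose to 672, 427 and 367 CPM (2.89 ± 0.28, adjusted p = 4.6e-06). Genes of cell volume control rose in 4 of 7 cases, including the taurine transporter *Slc6a6* (2.81 ± 0.35) and the kinase *Sgk1* (3.25 ± 0.51), and fell in 2, *Fxyd2* and the inositol transporter *Slc5a3*. Both cold shock genes tested rose, *Cirbp* by 1.17 ± 0.25 and *Rbm3* by 1.10 ± 0.23. Of 10 salt transport genes tested 7 fell, among them *Atp1b1*, the beta subunit of the sodium pump (-0.68 ± 0.11), and *Kcnj1* (-0.63 ± 0.17), and 1 rose. *Cldn10* fell from 2287, 1321 and 1653 CPM to 521, 632 and 812 CPM (-1.28 ± 0.19, adjusted p = 0.00023) and *Ptger3* fell by 1.04 ± 0.20. Transcripts of vascular cells rose in 8 of 8 endothelial genes tested, a count that is a description only because a gene can pass the filter through the cryopreserved libraries alone. The endothelial list summed to 1117 to 2354 CPM against 190 to 559 CPM, and the pericyte gene *Rgs5* went from 0 to 33 UMIs, while 15 of 15 proximal tubule genes fell. Hemoglobin genes fell in 3 of 3 cases, to 21.7 to 39.5 CPM in sum from 733 to 4196 CPM, and the immune genes *Cd74* and *Tyrobp* rose, 2 of 2 tested, with the list at 944 to 5314 CPM in sum against 145 to 320 CPM. The counts of proximal tubule, hemoglobin and immune genes are a description only as well, since a gene can pass the filter through the group where it is high. The part of these other cells in the result was not tested. *Kcnj1* lost its call at -0.59 and -0.54 without warm fresh library 3 or cryopreserved library 3.

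In female Balb/c kidneys, cold-dissociated and cryopreserved for 2 weeks, 376 of 7297 genes (5.15%) were called, 128 higher (1.75%) and 248 lower (3.4%). Here the stress response was small, with 3 of 13 stress genes called: *Jun* rose from 41.8, 56.2 and 75.4 CPM to 216, 141 and 272 CPM (1.68 ± 0.24, adjusted p = 0.000423), *Junb* by 1.43 ± 0.35 and *Ier3* by 1.05 ± 0.28. *Fos* stood at 20.6, 6.39 and 22.7 CPM and *Hspa1a* did not pass (-0.01 ± 0.34). *Wnk1* (0.91 ± 0.19), *Pth1r* (0.62 ± 0.18) and *Foxq1* (0.83 ± 0.24) rose and *Cldn10* (-0.62 ± 0.15), *Ptger3* (-0.67 ± 0.16) and *Ckb* (-0.70 ± 0.15) fell, but each of these 6 lost its call without at least 2 of the 6 libraries. *Umod* (-0.10 ± 0.19) and *Egf* (0.23 ± 0.20) did not pass. The injury marker *Lcn2* stood at 4.26, 16.8 and 19.6 CPM in fresh and 66.8, 16 and 219 CPM in cryopreserved members, with overlap, and its call (2.42 ± 0.62) was lost without any library except cryopreserved library 2. Proximal tubule genes fell in 19 of 21 cases, a description only, since a gene can pass the filter through the fresh libraries alone. They summed to 726 to 1166 CPM against 5183 to 9306 CPM, and with their barcodes left out 183 genes were called. Without fresh library 1, 2 or 3 the count was 157, 160 and 187. Of the 338 genes called here that were also tested for the claudin sides, 103 (30.5%) were called there too, 10.8% of the 954 called for the sides, against 14.8% of all 6465 genes tested in both, and 96 of the 103 had the same sign. These 96 include proximal tubule genes that were lower in both, among them *Slc34a1*, *Lrp2*, *Miox* and *Slc27a2*, and their part was not tested. In the cold C57BL/6J comparison, of 86 called genes tested for the sides 23 (26.7%) were called there too, 8.55% of the 269 called for the sides, against 17.8% of all 1510 genes tested in both, 11 with the same and 12 with the opposite sign. The strain, sex, age, storage time (6 weeks in C57BL/6J), chemistry and centrifugation all differ from the C57BL/6J comparison, so the difference between the responses was not tested.

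Methanol fixation after cold dissociation called 429 of 1810 genes (23.7%), 192 higher (10.6%) and 237 lower (13.1%). Of 4 genes tested from the list of nuclear noncoding RNAs 3 fell and *Gm42418* rose. *AY036118*, which overlaps *Gm42418* on the other strand, was the called gene that rose most. It went from 10 UMIs in fresh to 231 in fixed members (4.65 ± 0.34). After warm dissociation it also rose most, from 16 to 296 UMIs (6.25 ± 0.30). *Malat1*, a long noncoding RNA held in the nucleus, fell from 63728, 92348 and 104032 CPM to 13360, 9644 and 9237 CPM (-3.17 ± 0.20, adjusted p = 8.57e-10), and *Neat1* (-1.64 ± 0.27) and *Kcnq1ot1* (-3.09 ± 0.53) fell as well. Transcription factor genes of the thick limb fell in 5 of 7 cases, including *Pou3f3* (-1.30 ± 0.31) and *Tfap2b* (-1.46 ± 0.43). *Egf* fell from 12408, 15976 and 12514 CPM to 8801, 7227 and 6211 CPM (-1.03 ± 0.16, adjusted p = 0.000182), while *Umod* fell by 0.46 ± 0.14 (adjusted p = 0.0276), a call lost at -0.50 to -0.38 without any 1 of the 3 fixed libraries. Without cold fresh library 2, fixed library 2 or fixed library 3 the count was 235, 254 and 234. *Cldn10* rose by 0.55 ± 0.19 (adjusted p = 0.0379), a call that is not given here for the alternative runs. Of 5 stress genes tested 4 fell (*Btg1*, *Hsp90ab1*, *Ier3* and *Jund*) and 0 rose, and *Fos* stood at 0, 0 and 8.34 CPM. Proximal tubule genes rose in 13 of 17 cases, to 24415 to 35371 CPM in sum from 7654 to 10820 CPM, distal convoluted tubule genes fell in 2 of 3 (*Sgms2* and *Wnk4*), and *Atp6v1g3* of intercalated and *Cryab* of thin limb cells rose. Their part in the result was not tested. After warm dissociation fixation called 157 of 1779 genes (8.83%), 70 higher (3.93%) and 87 lower (4.89%), and 254 with the suspension as block. *Malat1* (-2.66 ± 0.23), *Neat1* (-1.12 ± 0.18) and *Egf* (-1.09 ± 0.18) fell there too, *Gm42418* rose, and of 16 stress genes tested 4 fell (*Btg1*, *Btg2*, *Hsp90ab1* and *Jun*) and 0 rose. *Umod* (-0.30 ± 0.14) and *Fos* (-0.71 ± 0.50) did not pass, and with the block both were called, at -0.30 and -0.89. Without warm fixed library 1 *Fos* was called at -2.02. Hemoglobin genes rose in 2 of 4 cases (*Hbb-bs* and *Hbb-bt*), to 4229 to 12308 CPM in sum from 733 to 4196 CPM, as did the immune gene *Cd74* and 1 of 16 proximal tubule genes (*Gpx3*), and their part in the result was not tested. Without warm fresh library 3 or warm fixed library 2, 87 and 56 genes were called.

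Nuclei were compared with cold-dissociated fresh cells of the same strain and sex. Nuclei came from frozen kidneys and cells from fresh ones. Nuclei libraries count introns as well as exons and cell libraries exons alone. The protocol, the freezing and the counting therefore cannot be told apart. Most genes moved: 4579 of 7496 (61.1%) in males, 2980 higher (39.8%) and 1599 lower (21.3%), and 9432 of 11607 (81.3%) in females, 5023 higher (43.3%) and 4409 lower (38%). The median log2 fold change over all genes was 0.67 in males and 0.16 in females, so changes are read against it. Without nuclei library 1, 2 or 3 the male count was 2677, 2535 and 2530.

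Genes of secreted or signalling proteins were lower in nuclei in 11 of 14 cases in females and 8 of 14 in males, with median log2 fold changes of -2.59 and -1.05. *Umod* fell from 26878, 24958 and 21496 CPM in female cells to 1716, 1564 and 1325 CPM in 3x500g nuclei (-4.46 ± 0.13, adjusted p = 2.9e-13) and by 2.80 ± 0.25 in males. *Spp1*, which encodes osteopontin, fell by 5.55 ± 0.15 and 3.86 ± 0.33, and *Wfdc15b* by 5.34 ± 0.11 and 4.04 ± 0.25. *Egf* did not pass in females, at 7145, 6165 and 6602 CPM in female cells and 6959, 8168 and 9606 CPM in nuclei (-0.15 ± 0.11, adjusted p = 0.225). Its male value (-0.55 ± 0.20, adjusted p = 0.0189) was no longer called at -0.39 with at least 6 *Slc12a1* UMIs. Genes of glycolysis were lower in 15 of 17 and 10 of 16 cases and chaperones in 19 of 20 and 11 of 15. Transcription factor genes of the thick limb were higher in 10 of 19 and 10 of 16 cases and lower in 6 and 4, beside 43.3% and 39.8% higher and 38% and 21.3% lower over all genes tested. The higher ones included the estrogen-related receptor *Esrrg*, from 58, 61.4 and 49.6 to 5500, 5447 and 5612 CPM in females (6.13 ± 0.12) and by 4.70 ± 0.26 in males, and *Esrrb* (2.89 ± 0.20 and 3.12 ± 0.49). The homeobox gene *Irx1* was lower (-2.49 ± 0.14 and -2.60 ± 0.32). *Casr* (2.09 ± 0.12 and 4.04 ± 0.52) and *Stk39*, the kinase that acts on NKCC2 (1.72 ± 0.11 and 2.40 ± 0.31), were higher, and *Cldn10* (-2.77 ± 0.11 and -1.49 ± 0.21) and *Kcnj1* (-1.06 ± 0.09 and -1.19 ± 0.21) were lower. Markers of other cells moved as well. Their counts are a description only, since a gene can pass the filter on low counts through the nuclei or the cell libraries alone. *Flt1*, for example, had 0 UMIs in male cells and 117 in male nuclei. Endothelial genes were higher in 6 of 10 female and 5 of 5 male cases, stromal genes in 3 of 5 and 1 of 1, and intercalated cell genes in 5 of 8 female cases and 0 of 3 male cases, with 1 lower in each sex. Podocyte genes were lower in 3 of 7 female cases. Genes of the distal convoluted tubule were higher in 2 and lower in 3 of 6 female cases and lower in 2 of 4 male cases, and those of the connecting tubule and principal cells were higher in 4 and lower in 4 of 11 female cases. Proximal tubule genes were higher in 6 and lower in 10 of 22 female cases, and higher in 14 and lower in 2 of 24 male cases, where they summed to 10792 to 14839 CPM in nuclei and 5038 to 10414 CPM in cells. Hemoglobin genes were lower in 4 of 4 and 3 of 3 cases, and immune genes in 8 of 9 female cases and 1 of 1 male cases. The part of these markers in the result was not tested.

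Some of the largest differences were of genes that lie inside others. *Cox4i1*, a subunit of cytochrome oxidase (chromosome 8, 120668222-120674207, plus strand), stood at 3105, 4167 and 2731 CPM in male cells and was listed at 0 UMIs in all 3 male nuclei libraries, at least 2680-fold lower. *Gm20388*, an annotated gene that overlaps it on the same strand, was at 0 in the cells and at 904, 901 and 912 CPM in the nuclei. *Ndufa13*, *Chchd2*, *Rpl13* and *Slc5a3*, which with *Cox4i1* are the 5 genes that fell most, were also at 0 UMIs in every male nuclei library, and each overlaps another gene on its own strand in the GRCm38 annotation, as do 26.3% of the 7273 male genes tested that matched it once and 18.5% of those called lower. Of the 5 female genes that fell most 4 matched the annotation, of which *Hoxc10* and *Asnsd1* overlap another gene on their own strand and *Mt3* and *Rprm* do not, beside 14.9% of the female genes called lower. For the 5 male genes the overlap and the counting with introns move with the result, and their part was not tested.

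Female nuclei isolated with 1 spin at 2000g differed from 3x500g nuclei in 3164 of 13349 genes (23.7%), 1948 higher (14.6%) and 1216 lower (9.11%). Of 14 genes of secreted or signalling proteins 9 rose, led by *Spp1*, from 167, 147 and 115 CPM to 957, 816 and 816 CPM (2.63 ± 0.13, adjusted p = 7.52e-07). *Umod* rose to 3854, 3636 and 3197 CPM (1.25 ± 0.11, adjusted p = 1.93e-05), *Defb1* by 1.07 ± 0.19 and *Wfdc15b* by 0.83 ± 0.09, while *Egf* did not pass (0.02 ± 0.13). As given with the shares, *Umod* was also detected more often in 1x2000g nuclei outside the rule, with exactly 1 *Slc12a1* UMI. Its rise is therefore not particular to the members, and the part of this background in it was not tested. Chaperones rose in 12 of 20 cases, among them *Hspa5*, which folds proteins in the endoplasmic reticulum, from 38.9, 32.9 and 33.3 CPM to 87.4, 79.4 and 87.9 CPM (1.31 ± 0.11). *Cldn10* rose from 379, 343 and 390 CPM to 641, 645 and 683 CPM (0.86 ± 0.09, adjusted p = 4.09e-05) and *Malat1* by 0.61 ± 0.11. *Kcnj1* (0.28 ± 0.08, adjusted p = 0.0347) lost its call at 0.10 with at least 6 *Slc12a1* UMIs and without 5 of the 6 libraries, at 0.21 to 0.29. Of 23 proximal tubule genes 9 rose, *Kap* among them by 3.22 ± 0.18, and 7 fell, with a median log2 fold change of -0.02. Immune genes rose in 4 of 6 cases and 1 fell, and distal convoluted tubule, connecting tubule or principal cell, and thin limb genes rose in 2 of 6, 2 of 11 and 2 of 8, and their part in the result was not tested.

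Nuclei from the sucrose cushion, which were not sorted, differed from the same 3x500g libraries in 4365 of 13011 genes (33.5%), 2339 higher (18%) and 2026 lower (15.6%). *Spp1* stood at 582, 675 and 665 CPM (2.19 ± 0.13), *Umod* at 2224, 3333 and 2412 CPM (0.82 ± 0.15, adjusted p = 0.00205) and *Malat1* at 182519, 199933 and 197648 CPM against 108755, 96948 and 97890 CPM (0.96 ± 0.12). Here too *Umod* was detected more often than in 3x500g libraries in nuclei with exactly 1 *Slc12a1* UMI. The part of this background was not tested. Transcription factor genes were lower in 8 of 19 cases and higher in none, with *Esrrg* at -0.49 ± 0.10, *Esrrb* at -0.68 ± 0.15 and *Pax2* at -0.59 ± 0.13, and 7 of 15 receptor and kinase genes were lower. *Egf* was lower (-0.40 ± 0.13, adjusted p = 0.0346), a call lost at -0.26, -0.32 and -0.39 without 3x500g library 3, sucrose library 1 or sucrose library 2. The antiviral gene *Trim5* had 60 UMIs in the 3x500g libraries, 1 of them at 0, and 1114 in the sucrose libraries (4.76 ± 0.43). Endothelial genes rose in 6 of 9, stromal in 5 of 7, immune in 4 of 6, and connecting tubule or principal cell genes in 4 of 11 cases, while proximal tubule genes rose in 7 and fell in 5 of 23, and their part in the result was not tested.

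**Figure D5:**
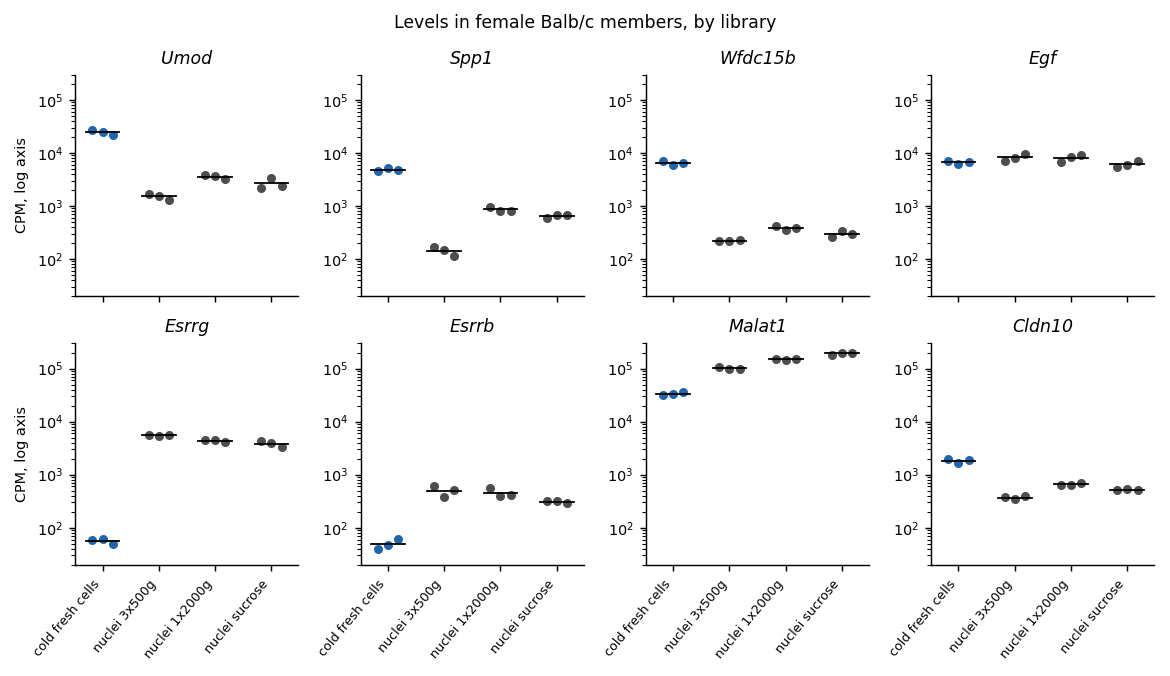
Levels of 8 genes in female Balb/c thick limb barcodes (y axes, CPM of non-mitochondrial UMIs, log scale shared by all panels) in cold fresh cells and in nuclei of 3 isolation protocols. Points are libraries and lines are means. *Umod*, *Spp1*, *Wfdc15b* and *Cldn10* are lowest in 3x500g nuclei, *Egf* is at 5482 to 9606 CPM in all 4 groups and lower in sucrose than in 3x500g nuclei, and *Esrrg*, *Esrrb* and *Malat1* are higher in nuclei than in cells.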

How the data were processed

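Single-cell and single-nucleus 10x libraries of mouse kidney (39 in 13 groups of 3) were analysed, and 15 bulk samples were not used here. The authors deposited UMI counts per gene and barcode, made with Cell Ranger 2.1.1 against mm10, from exonic reads for cells and from intronic and exonic reads for nuclei, after their filters on empty droplets, genes and mitochondrial share. Mitochondrial genes are not listed in the nuclei and male Balb/c cell files, so levels are CPM of non-mitochondrial UMIs. No column belonged to other samples.

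The members and gene lists were chosen with earlier results of these data known. Counts of the members were summed per library (at least 10 members) and tested with edgeR 4.0.16 in R 4.3.3 (quasi-likelihood test, TMM, filterByExpr), with Benjamini-Hochberg adjustment over all genes tested, and a gene was called at an adjusted p below 0.05. The 4 genes of the rule were left out of the claudin sides, of the list counts and of the genes picked by fold. They were not taken out of the other fits, so they could enter those counts of genes tested and called. SE is the log2 fold change divided by the square root of F. The scripts were tested on simulated data. Genes were named if they stood in one of 24 lists or among the 5 called genes with the largest fold in each direction. For the claudin sides the 10 with the largest fold and the same sign in males were added. A fold against 0 UMIs used a floor of 3 UMIs over the group, and intervals are 95% and cover counting error only. Doublets were not called in the data as analysed, and leaving out members with over 2 times the median UMIs of their library was an alternative, as were DESeq2 1.42.0, RLE factors, no filter, a fold threshold, members with *Umod*, and each library left out.

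Barcode prefixes and the methods place fresh and preserved libraries with the same number on 1 suspension. Deviations from the group mean correlated at 0.0178 and 0.0954 for cold cryopreserved, 0.111 to 0.207 for warm cryopreserved, 0.149 to 0.363 for cold fixed and 0.184 to 0.384 for warm fixed pairs. Fresh warm and cold libraries of the same number correlated at 0.158 to 0.326, a pairing seen in the data alone, and fixed ones at -0.133 to 0.0387, which share only a number. Which female fresh and cryopreserved libraries share a suspension is not given in the sources used here, so they were fitted without a block. Promoters came from RefSeq.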

Additional observations from a re-analysis of the deposited data

Results flagged for a closer look

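The share of thick limb barcodes after thinning to 500 UMIs changed in opposite directions on cryopreservation of C57BL/6J suspensions. After cold dissociation every cryopreserved library lay below every fresh one, with a difference of -0.946 percentage points, and after warm dissociation every cryopreserved library lay above every fresh one, with a difference of 2.48 percentage points. The difference between these changes was not tested. Both shares are of all barcodes, and the paper reports a near loss of proximal tubule cells on cryopreservation. The part of that loss in the shares was not tested. Counted among thick limb, distal convoluted tubule and principal cell barcodes alone, the share fell after both, by 23.8 and 15.9 percentage points. The fall after warm dissociation rested in large part on 1 cryopreserved library, at 26.1%.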

How the results depend on the processing

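With DESeq2 the numbers of genes called were 56 for cold and 263 for warm cryopreservation, 197 for cold and 75 for warm methanol fixation, and 18 for warm against cold in fixed members. Without a filter on low counts they were 170 for warm against cold in fresh members, 252 for cold and 909 for warm cryopreservation. With a log2 fold change of at least 1 in size they were 250 for warm and 198 for female cryopreservation, 266 and 91 for cold and warm fixation, 21 for warm against cold in fixed members, 847 for 1x2000g, 645 for sucrose and 749 for the claudin sides, which gave 363 with nuclei thinned to 1000 UMIs. Leaving out members of high UMI count gave 28 for cold, 252 for warm and 190 for female cryopreservation, and 247 and 57 for cold and warm fixation. Members with *Umod* gave 48 for cold cryopreservation. Leaving out members with proximal tubule UMIs, chosen after seeing the data, gave 183 for female cryopreservation, and *Slc34a1* reversed to 0.75 for 1x2000g. The members left out were chosen by their *Slc34a1* and *Lrp2* UMIs, so this value of *Slc34a1* is not free of the choice. It is no separate result about the gene.

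With the replicate block (suspension number), chosen after seeing the barcode prefixes, 204 genes were called for cold cryopreservation, 254 for warm fixation and 2 for the difference of the warm effects. Warm against cold gave 95 in fresh and 28 in fixed members, where the labels name no shared origin, and without the block the sides gave 1523. Outside the sides, and leaving aside *Cldn10* after cold fixation, the block changed no call of a gene named here other than those given beside the results. Without the block *Irx2* was not called for the sides. Leaving out 1 library gave 37 to 125 for warm against cold in fresh and 14 to 38 in fixed members, 0 to 1 for their difference, 33 to 125, 372 to 482 and 157 to 303 for cold, warm and female cryopreservation, 234 to 546 and 56 to 136 for cold and warm fixation, 2530 to 4811 and 8978 to 9373 for male and female nuclei, 2143 to 2820 for 1x2000g, 2992 to 3957 for sucrose, and 1391 to 1665 for the sides without 1 protocol.

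Shares reversed for warm cryopreservation (-15.9 percentage points) and warm fixation (3.55) counted among the 3 distal classes, and for 1x2000g (0.98) with *Umod* members. The limits of the first and the last, 1 low library and an unequal *Umod* background, are given above. Leaving out 1 library moved the share difference of warm fixation from -0.433 to 0.10 and kept the sign of the others.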
